A study of Rattus norvegicus with 18 samples.

Results

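The comparison described here set the left lungs of rats, whose hilum had been clamped for 2 h and then opened for 30 min of reperfusion, against the unclamped right lungs retrieved at the same time. It rested on the 3 arrays titled as left and the 3 titled as right lung at 30 min, 6 of the 18 arrays of the series, and on all 15866 probe sets other than the array's 57 controls. Of these, 10533 were bright enough to be tested, and they named 7728 genes. The animals were anaesthetised male Sprague-Dawley rats, an outbred laboratory stock, ventilated through a tracheotomy, with the left chest opened for the clamp. The right lung shared the anaesthesia, the ventilation, the operation and the circulation, but was not clamped. Both lungs of an operated rat were taken, so the left and the right arrays came from the same 3 animals, although the labels do not say that equal replicate numbers mark one rat. The other arrays held 6 control lungs, retrieved right after anaesthesia and sacrifice with no operation and with their side not given, and 3 left and 3 right lungs at 3 h of reperfusion. The clamped lung was always the left one, so side and clamp cannot be told apart, and no lung taken at the end of the clamp without reperfusion was analysed here.

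Clamping the hilum stops blood flow and air flow to one lung while the other lung carries the whole circulation. On release, oxygen and blood return, and lung cells are known to answer with immediate early transcription factors, cytokines and adhesion molecules, with chaperones following as heat shock factor acts on damaged proteins. The unclamped lung is exposed to the operation and to mediators in the blood, but not to the local lack of flow.

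The values were MAS5 signals, the brightness of a probe set after scaling each array to one trimmed mean, and differences are given on the scale of log2(signal + 25) with the standard error of the limma fit over all 18 arrays. The fit took left and right lungs as independent samples. An adjusted p is limma's, with Benjamini-Hochberg adjustment over the 10533 probe sets, and a probe set is called at an adjusted p under 0.05. The median signal was 252 to 273 over the 6 arrays, and each pair of them correlated at a Pearson r of 0.918 to 0.961 on the log2 scale, with replicates of one side (0.918 to 0.961) no closer than left and right arrays (0.925 to 0.961). The tissue was lung by its markers: Scgb1a1, the club cell secretory protein, had signals of 15991, 11051 and 11985 in left and 12250.1, 10453 and 11396 in right lungs, and Ager, the type I cell receptor, 7649, 6184 and 6366 and 5804, 5751 and 4391. The 3′ to 5′ signal ratio of actin, which increases as RNA is degraded or copied incompletely, was 4.81, 1.53 and 2.30 in left replicates 1, 2 and 3 and 1.47, 1.49 and 2.93 in right replicates 1, 2 and 3, against 1.31 to 1.54 in the controls. Left replicates 1 and 3 and right replicate 3 therefore stood apart on both sides. With 3 arrays against 3 an exact permutation test cannot go below p = 0.1, so it could not separate the sides by any of 18 such measures of arrays and cell type lists. The red cell and the mast cell lists reached that smallest value (0.9 after adjustment over the measures), with all 3 left lungs below all 3 right lungs.

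Few probe sets passed the threshold. At 30 min, 4 of the 10533 probe sets (0.0380%) were called between clamped left and unclamped right lung. In the left lung 1 was higher (0.00949%) and 3 were lower (0.0285%). The higher gene was Mylip, a ubiquitin ligase that sends the LDL receptor to degradation, and the lower ones were Mief1, a mitochondrial outer membrane receptor for the fission protein Drp1, Rnf144b, another ubiquitin ligase, and Id1, an inhibitor of basic helix-loop-helix transcription factors and a classical target of BMP signalling. With the replicate number as a block the count was 6, 2 higher and 4 lower, which held the same 4 probe sets and added Rasgrp2 and Cd52. Fitted on the 6 arrays alone, 0 were called, with the block (910 at an unadjusted p under 0.05) or without it (659). Over the 7728 genes, 4 (0.0518%) were called. Without left replicate 3 or without right replicate 3, Mylip was the only one of the 4 still called. Mief1 was not called without left replicate 1, Id1 and Rnf144b not without left replicate 2, and Rnf144b not without right replicate 2. When left replicates 1 and 3 and right replicate 3 were left out together, 0 were called (510 at an unadjusted p under 0.05), with differences of 0.93 for Mylip, -0.60 for Mief1, -0.82 for Rnf144b and -1.03 for Id1. At an unadjusted p under 0.05 there were 905 probe sets (8.59%), 420 higher (3.99%) and 485 lower (4.60%). Over genes, 4.06% were higher and 4.27% lower, the shares to set beside the list counts below. A positive difference was found in 3750 and a negative one in 3978 of the 7728 genes, to set beside the counts of signs in the lists. Members of a list can vary together within an array, so such counts are not independent observations. The median difference over all 7728 genes was -0.01, and 47 of them differed by more than 2-fold, 20 higher and 27 lower in left. On simulated data of this size, with 200 changed probe sets, 81.9% of those changed 2-fold and 97.8% of those changed 4-fold were recovered. The cutoff of the adjustment depends on how many probe sets change and by how much, and only 4 were called here. These shares therefore do not say what part of the 2-fold differences in the real arrays was found.

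Mylip had signals of 1379, 1222 and 1473 in the 3 left lungs and 708, 558 and 594 in the 3 right lungs. Every left lung was above every right lung and above all controls, which ranged from 685 to 896. The left lung was 2.15-fold higher (1.10 ± 0.14 on the log2 scale, adjusted p = 0.00324), and stood 0.79 above the controls (adjusted p = 2.41e-04), while the right lung stood at -0.31 (adjusted p = 0.0944). At 3 h the difference was 0.0083. Mief1 went the other way, with 88.7, 139 and 88.2 in left and 246, 204 and 267 in right lungs. The right lungs lay around the controls (219 ± 15.2, SD, n = 6), and the left lungs were all below them. The right lung was 2.05-fold higher than the left (-1.03 ± 0.15 left minus right, adjusted p = 0.015), with -0.92 between left and control (adjusted p = 1.67e-04) and 0.11 between right and control (adjusted p = 0.631). The left signals of Mief1 were dim: all 3 lay under 174, the signal that a probe set had to pass on 3 arrays to be tested.

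Rnf144b had signals of 531, 471 and 402 in left and 809, 897 and 911 in right lungs, with controls at 718 ± 65 (SD, n = 6). The groups did not overlap, and the controls lay between them. The difference was -0.87 ± 0.14 (adjusted p = 0.015), made up of -0.59 in left (adjusted p = 0.00213) and 0.28 in right lungs against control (adjusted p = 0.13). Id1 had 3107, 2335 and 2616 in left and 5293, 4351 and 4879 in right lungs, again on either side of the controls (3927 ± 367, SD, n = 6). Its difference was -0.85 ± 0.13 (adjusted p = 0.015), with -0.55 in left (adjusted p = 0.00295) and 0.30 in right lungs against control (adjusted p = 0.089). In these 4 genes the call against control was thus made in the clamped lung and missed in the unclamped one, although the left and right comparisons share their controls. Left replicate 2, whose actin ratio was 1.53, lay nearest to the right lungs of the left lungs in Mylip and Mief1, and farthest in Id1. With the actin ratio as a covariate all 4 were called, with differences of 1.09, -0.97, -0.92 and -0.94 for Mylip, Mief1, Rnf144b and Id1.

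**Figure D1:**
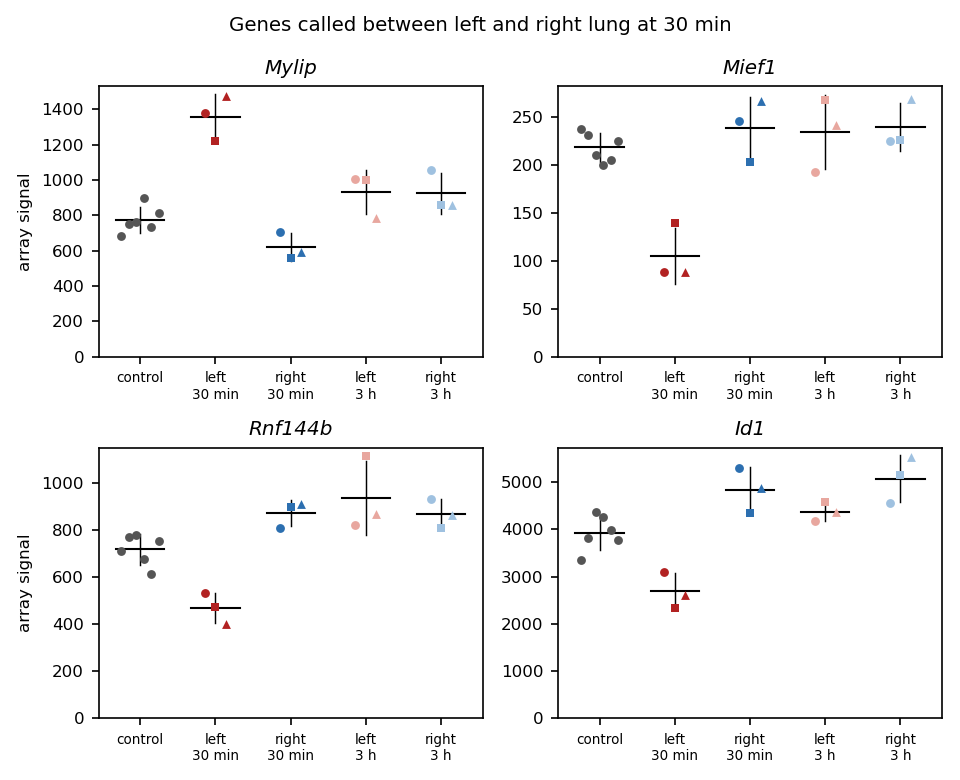
Array signal (vertical axes, from 0) of the 4 called genes in each of the 18 arrays by group; horizontal bars are group means, vertical bars 1 SD, and circles, squares and triangles mark replicates 1, 2 and 3 of the operated lungs (controls are all circles). The 3 left lungs at 30 min stand alone, at 1222 to 1473 for Mylip. At 3 h the left and right means lie close together for Mylip, Mief1 and Rnf144b, while those of Id1 were 4372 in left and 5077 in right lungs (-0.21 on the log2 scale).

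The stretches of 150 bases before the transcription start of the 4 called genes are shown because only these genes passed the threshold. RefSeq gives the stretches on build GRCr8. Mylip lies at chr17:19514472-19514621 on the minus strand, Mief1 at chr7:113666768-113666917 on the plus strand, Rnf144b at chr17:17769038-17769187 on the minus strand and Id1 at chr3:161671414-161671563 on the plus strand, each read in the direction of the gene. Capitals mark matches on either strand to any of 8 motifs: the heat shock element in 2 units (GAANNTTC) or 3 (the same followed after 2 bases by GAA, so that it holds the shorter one), the AP-1 site (TGANTCA), the CRE (TGACGTCA), the CArG box, the NF-kB site, the hypoxia response element core (ACGTG) and the core of the glucocorticoid response element (TGTTCT).
Mylip: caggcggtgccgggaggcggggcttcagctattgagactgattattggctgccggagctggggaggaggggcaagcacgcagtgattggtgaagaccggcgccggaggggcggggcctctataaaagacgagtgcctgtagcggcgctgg
Mief1: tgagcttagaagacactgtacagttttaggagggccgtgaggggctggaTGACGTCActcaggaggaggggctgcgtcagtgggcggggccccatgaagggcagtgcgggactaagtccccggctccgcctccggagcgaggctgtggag
Rnf144b: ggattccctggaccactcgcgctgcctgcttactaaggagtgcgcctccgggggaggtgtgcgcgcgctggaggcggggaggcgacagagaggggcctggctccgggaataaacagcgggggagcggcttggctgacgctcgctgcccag
Id1: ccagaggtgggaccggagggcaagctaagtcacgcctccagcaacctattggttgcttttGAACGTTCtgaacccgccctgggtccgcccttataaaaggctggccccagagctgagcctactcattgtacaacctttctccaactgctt
The only matches in these stretches were a CRE in Mief1, starting 101 bases before the start, and a pair of heat shock units in Id1, starting 90 bases before it. In the full windows of 250 bases before and 50 after the start, 3.02% of the 6460 tested genes with a promoter in the table held the CRE, and 5.46% held GAANNTTC. Neither Mylip nor Rnf144b matched any of the 8 motifs in that window.

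The genes next in order of p did not pass the threshold. On the higher side Rasgrp2, the exchange factor that activates Rap1 in platelets and lymphocytes, came first, with 680.2, 543 and 534 in left and 310.2, 159 and 369.8 in right lungs. Its difference was 1.07 ± 0.20 (adjusted p = 0.0641, or 0.0217 with the replicate block), but a second, dimmer probe set of Rasgrp2 gave 0.03. Foxp1, a forkhead transcription factor of lung epithelium and lymphocytes, had 881, 817 and 887 in left and 419.5, 414 and 616 in right lungs, against controls of 344 to 521. All left lungs were above all right lungs and controls (0.82 ± 0.18, adjusted p = 0.113). B3galnt1, a glycosyltransferase of globoside synthesis, had 1137, 934 and 1076 and 826, 438 and 318 (1.06 ± 0.23, adjusted p = 0.133). Ambra1, a regulator of autophagy, had low right lungs: its signals were 359.8, 347 and 367 in left, 271, 227 and 201 in right and 364 ± 22.1 in control lungs (0.58 ± 0.12, adjusted p = 0.104). Smad3 (0.57 ± 0.13), Tcp11l2 (0.65 ± 0.15) and the stress gene Gadd45b (0.75 ± 0.18) had adjusted p values of 0.163, 0.173 and 0.195, also with all left above all right lungs. These 7 genes fill the list to 8 on that side.

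On the lower side the next 5 were Slc4a1, Alox15, G6pc3, Cd52 and Ube2o, and in each the right lungs stood farther from the controls than the left lungs did. Alox15, a lipoxygenase known from reticulocytes, had 309, 322 and 289 in left and 707, 695 and 1775 in right lungs, with controls of 208 to 315. Left lungs lay within or near the control range and right lungs far above it, replicate 3 highest (-1.57 ± 0.29 left minus right, adjusted p = 0.0641; right against control 1.74, adjusted p = 2.85e-04). Ube2o, a ubiquitin ligase that clears proteins as reticulocytes mature, had 440.1, 384 and 379.7 and 805, 739 and 1803 (-1.30 ± 0.26, adjusted p = 0.0799), with 1.60 between right and control. Cd52, a small surface glycoprotein of leukocytes, had 146, 83.9 and 120.1 and 314, 223 and 678 (-1.48 ± 0.29, adjusted p = 0.0641, or 0.0217 with the replicate block), with controls at 94.3 ± 11.5. G6pc3, the widely expressed glucose-6-phosphatase, had 327, 325 and 308 in left and 571, 491 and 546 in right lungs (-0.70 ± 0.13, adjusted p = 0.0641). Its 3 right lungs were above all controls (314 to 389).

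**Figure D2:**
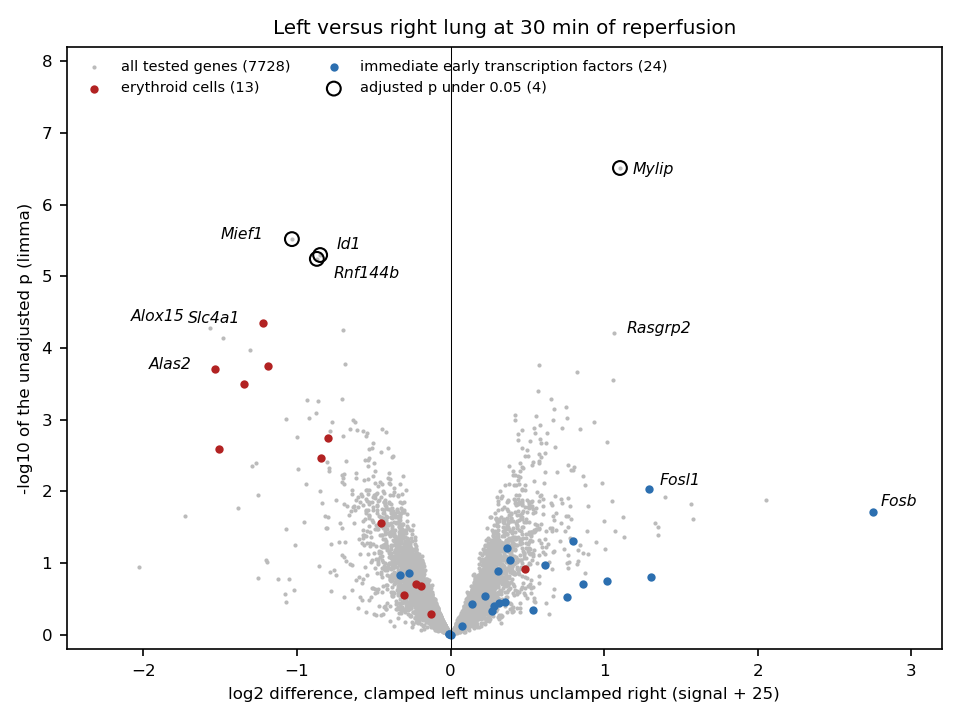
Log2 difference left minus right at 30 min (horizontal axis) against -log10 of the unadjusted p (vertical axis) for the 7728 tested genes; red points are the 13 tested red cell genes, blue points the 24 immediate early transcription factors, and rings the 4 called genes. Most red cell genes lie to the left of 0, most immediate early genes to the right at low -log10 p.

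Red cell genes made the largest shift of any cell type list. Of 13 tested members, 12 had a lower mean in left than in right lungs, where 3978 of all 7728 genes had one. At an unadjusted p under 0.05 there were 8 of them, where 4.27% of all genes were, and 7 had no overlap, where 6.28% did. None was called. Their median difference was -0.80, against -0.01 over all genes. Fewer red cells and less RNA per cell cannot be told apart in tissue RNA, here as for every cell type below. Slc4a1, the anion exchanger band 3, had 216, 227 and 195 in left and 511, 453 and 633 in right lungs (-1.22 ± 0.23, adjusted p = 0.0641), and its other probe set gave -0.87. Alas2, the first enzyme of haem synthesis in red cell precursors, had 1431, 1512 and 1252 and 2881, 3311 and 7126 (-1.53 ± 0.33, adjusted p = 0.109). Left lungs matched the control range of 1004 to 1772, and right lungs were all above it, replicate 3 by far. Ahsp, the chaperone of alpha haemoglobin, had 112, 105 and 84.5 and 223, 246 and 316 (-1.19 ± 0.25, adjusted p = 0.104). Bpgm, which makes bisphosphoglycerate, had 855, 815 and 569 and 1228, 1664 and 3381 (-1.34 ± 0.30, adjusted p = 0.141). Among the rest, whose values were seen before they were chosen to be named, Fech (-1.51), Rhd (-0.85), Kel (-0.80) and Car2 (-0.45) had the same sign, while Hbb, a very bright beta globin probe set, differed by -0.19 ± 0.14 and Epb41 by 0.48 ± 0.30.

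Against the controls, 8 of the 13 red cell genes were called higher in right lungs, where 5.93% of all genes were, with a median of 0.79; in left lungs 2 were called higher, where 8.64% of all genes were, and 1 lower, with a median of 0.06. Both comparisons use the same controls. At 3 h, 0 of the 13 were called higher (1.75% of all genes were) and 1 lower (0.621% were) in left against right, with a median of -0.24. The mean log2 signal of the 13 genes was 9.17, 9.32 and 9.22 in left and 9.69, 9.87 and 10.28 in right lungs, with controls from 8.93 to 9.26. The 3 right lungs were thus above every other lung named here, and right replicate 3, with an actin ratio of 2.93, was the highest. The shift was present without it (median -0.57, 7 of 13 at an unadjusted p) and without any other single array (median -0.64 to -0.96, 7 to 9 of 13), and the part of RNA quality in it was not tested. Without left replicates 1 and 3 and right replicate 3 together, the arrays of high actin ratio, the median was -0.51, with a lone left array remaining. The 13-gene mean itself separated all left from all right lungs, so a fit with it as a covariate leaves little of the side to test. That fit called 0 probe sets (478 at an unadjusted p under 0.05), with differences of 0.93 for Mylip, -0.69 for Mief1, -0.68 for Rnf144b and -0.73 for Id1.

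**Figure D3:**
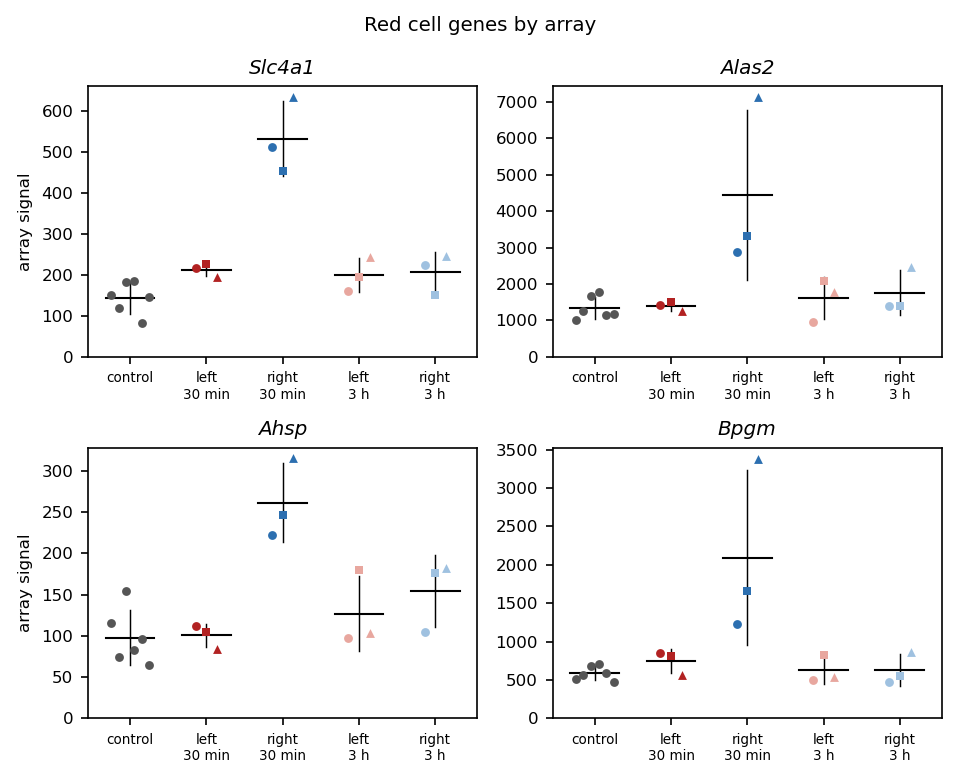
Array signal (vertical axes, from 0) of 4 red cell genes in each of the 18 arrays by group, with means, 1 SD and replicate symbols (circle 1, square 2, triangle 3 in operated lungs). The 3 right lungs at 30 min are above all other groups, for Slc4a1 at 453 to 633 against 195 to 227 in left lungs.

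The BMP, TGF-beta and Wnt list held the called gene Id1. Of its 36 tested members 1 was called (lower), where 3 of all 7728 genes were. At an unadjusted p under 0.05, 4 were lower and 2 higher, where 4.27% and 4.06% of all genes were. A negative difference was found in 24 members, where 3978 of all 7728 genes had one. The median of the list was -0.07. Beside Id1, its relative Id3 had 876, 1117 and 667 in left and 1907, 1599 and 1569.5 in right lungs (-0.94 ± 0.22, adjusted p = 0.173), with no overlap. Smad6, an inhibitory Smad that BMP signals induce, had 220.5, 404 and 296 and 691, 564 and 392 (-0.79 ± 0.25, adjusted p = 0.345); the groups overlapped, left replicate 2 being above right replicate 3. Id3 and Smad6, chosen to be named after their values were seen, were below the controls in left lungs (-1.40 and -1.45, adjusted p = 9.94e-05 and 2.12e-04) and at -0.47 and -0.66 in right lungs (adjusted p = 0.118 and 0.0506). The receptor Bmpr2 was low in both lungs, at 374, 412 and 359.5 in left and 288, 343 and 430.5 in right against 1769 ± 359 in control lungs, and the lungs differed by 0.12 ± 0.23 (95% interval -0.37 to 0.60). Smad3, the carrier of TGF-beta signals, was on the other side, as given above. Against control, 14 of the 36 were called lower in left lungs, where 9.52% of genes were, and 9 in right lungs, where 6.33% were. No member changed between 30 min and 3 h in its left-right difference by an adjusted p under 0.05.

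Immediate early transcription factors, which many cells switch on within minutes without new protein synthesis, had higher means in left than in right lungs for 20 of 24 members, with a median of 0.33. Of all 7728 genes, 3750 had a positive difference. None was called, and 3 were higher at an unadjusted p under 0.05, where 4.06% of all genes were. The right lungs were not alike. Right replicate 1 was the highest of the right lungs in 19 of the 24, where it was so in 2362 of all 7728 genes. Fosb, a partner of Jun in AP-1, had 3622, 2363 and 1166 in left and 1962, 106 and 107 in right lungs (2.75 ± 1.07, adjusted p = 0.478). Right replicate 1 stood within the left range and the other right lungs below every left lung. Fos had 4518, 4110.4 and 3649 and 5862, 906 and 807, with right replicate 1 above all left lungs (1.31 ± 0.88, adjusted p = 0.703). Fosl1 had 319, 1236 and 663 and 494, 187 and 159 (1.29 ± 0.44, adjusted p = 0.43), and Egr1, whose values were seen before it was named, 9358, 8253 and 7698 and 7979.6, 2706 and 3285. Controls also varied in these genes, Fos from 166 to 2027. Against control 16 of the 24 were called higher in left lungs, where 8.64% of all genes were, and 6 in right lungs, where 5.93% were, with medians of 1.24 and 0.68, over shared controls. The median difference left minus right was 0.64 without right replicate 1, with 9 of 24 at an unadjusted p, and 0.22 without right replicate 3, with 0 of 24. The count was 1 without left replicate 2 and 2 without left replicate 1 or right replicate 2. The fit without right replicate 1 had 1177 of all 10533 probe sets at an unadjusted p in either direction, against 905 in the main fit. Because that array was the highest right lung in most of these genes, leaving it out raised most differences by construction.

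MAP kinase feedback and mRNA decay regulators had 14 of 16 members higher in the mean of left lungs, with a median of 0.34. The phosphatases Dusp14 (983, 1119 and 1049.9 in left, 970.0, 662 and 645 in right) and Dusp5 (453, 953 and 587 and 532, 329.5 and 272) were the 2 members higher at an unadjusted p, with differences of 0.48 ± 0.20 and 0.76 ± 0.33. Of all genes 4.06% were higher at that p. Right replicate 1 was the highest right lung in 14 of the 16. Without it the median was 0.62 and 10 of 16 were higher at an unadjusted p. In that fit 1177 of all 10533 probe sets reached this p in either direction, against 905 in the main fit. Because right replicate 1 was the highest right lung in most of these genes, leaving it out raised most differences by construction. Without left replicate 2, right replicate 2 or right replicate 3 the number of members higher at an unadjusted p was 0, and without left replicate 3 it was 1.

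Cytokines and chemokines had 15 of 19 positive differences and no call. Il6 had 785, 1417 and 1269 in left and 765, 208 and 469.7 in right lungs, against 47.1 ± 6.96 in controls. All left lungs were above all right lungs, although left replicate 1 and right replicate 1 lay close together (1.35 ± 0.61, adjusted p = 0.556). Ccl2, the monocyte chemokine, had 1356, 2584 and 1754 and 1612, 403 and 1113 (1.0 ± 0.51, 95% interval -0.063 to 2.07). The neutrophil chemokine Cxcl1 had 2802, 2793 and 3188 and 4131, 2369 and 1745 (0.18 ± 0.35, 95% interval -0.55 to 0.91). Ccl20, the ligand of CCR6, ran against these, with 215, 123 and 248 in left and 1109, 333 and 327 in right lungs (-1.29 ± 0.39, adjusted p = 0.325); left lungs lay around the controls (135 to 279) and right lungs above them. Il15 had 424, 427 and 436 and 245, 301 and 360.5 (0.49 ± 0.17, adjusted p = 0.432). Of the 19 tested members 3 were higher and 1 lower at an unadjusted p, where 4.06% and 4.27% of all genes were. The higher ones were Il6, Il15 and Cxcl10, the lower one was Ccl20, and the median was 0.18.

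Areg, the EGF receptor ligand amphiregulin, had 1198, 2030.0 and 1738 in left and 1507, 613 and 409 in right lungs (1.13 ± 0.52, 95% interval 0.041 to 2.22, adjusted p = 0.561), and Hbegf 245, 868 and 614 and 483, 205 and 139.9 (1.0 ± 0.41, adjusted p = 0.499). In both, right replicate 1 stood within the left range. The other 5 of the 7 members had negative differences, so the median was -0.21. Tfpi2, an inhibitor of tissue factor and plasmin, had 799, 1429 and 1212 and 778, 210.1 and 278, no overlap (1.57 ± 0.58, 95% interval 0.35 to 2.79), and the airway serine protease Prss22 345, 1080.4 and 664 and 728, 80.5 and 24.6 (2.05 ± 0.74, adjusted p = 0.447). Prss22 was called, among 7 probe sets higher and 9 lower, when right replicate 1 was left out. Among 20 coagulation and fibrinolysis genes, Tfpi2 was higher and Serpind1, heparin cofactor, was lower in left lungs at an unadjusted p (183, 203 and 159 against 242, 300.3 and 266, -0.51 ± 0.21, adjusted p = 0.496).

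**Figure D4:**
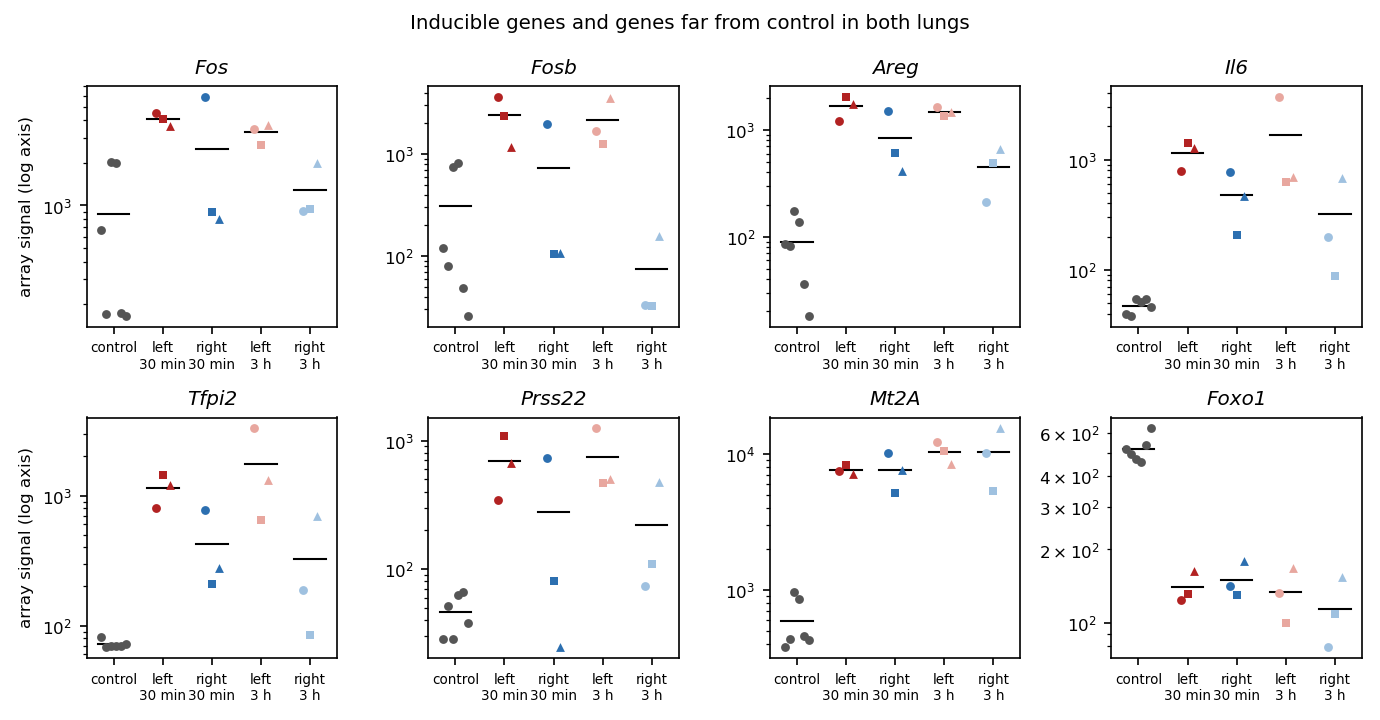
Array signal on log axes for 6 inducible genes and for Mt2A and Foxo1, by group; horizontal bars are group means, and circles, squares and triangles mark replicates 1, 2 and 3 of operated lungs. In Fos, Fosb, Areg, Il6, Tfpi2 and Prss22 the circle of the right lungs at 30 min lies near or within the left lungs, while in Mt2A and Foxo1 the lungs overlap, far from control.

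NF-kB subunits, inhibitors and targets had higher means in left lungs for 15 of 17 members, with a median of 0.34. At an unadjusted p 4 were higher, where 4.06% of all genes were, and 4 lay above with no overlap, where 5.62% did. Irf1, an interferon regulatory factor, had 2318, 2544 and 2137 in left and 1657, 2035 and 1472 in right lungs, without overlap (0.44 ± 0.15, adjusted p = 0.398). Icam1, the adhesion molecule that binds neutrophils, had 2845, 3445 and 3602 and 2464, 3088 and 1956 (0.41 ± 0.15, adjusted p = 0.447). Against control (3374 ± 201) the left lungs stood at -0.038 (adjusted p = 0.866) and the right lungs at -0.45 (adjusted p = 0.0284). Tnip1 (0.44) and Cd83 (0.47) were the remaining pair. The median was 0.42 with 7 members without right replicate 1, and 0.21 with 4 members without left replicate 2. Of all 10533 probe sets, 1177 and 944 were at an unadjusted p in either direction in these fits. In the list of apoptosis, p53 and cell cycle genes, 5 of 23 were higher and 1 lower at an unadjusted p. Over all genes 4.06% were higher and 4.27% lower, and the median of the list was 0.07. Gadd45b had 1669.7, 2309 and 2172 in left and 1356, 1166 and 1075 in right lungs, and Bcl2l11, the BH3-only protein Bim, 1364, 1311 and 1017 and 1005, 856 and 706 (0.51 ± 0.19, adjusted p = 0.451). The lower one was the cyclin kinase inhibitor Cdkn2b, with 18.5, 23.1 and 255 and 125, 242 and 233 (-1.38 ± 0.52, 95% interval -2.48 to -0.28); left replicate 3 was at the level of the right lungs, and left replicates 1 and 2 were near the array's floor.

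Alveolar type I cell genes were the epithelial list that leaned to the left lung. Of 13 tested, 5 were higher and 1 lower at an unadjusted p, where 4.06% and 4.27% of all genes were. None was called, and the median was 0.18. Pdpn, the surface glycoprotein podoplanin, had 5144, 4884 and 5888 in left and 4543, 3877 and 3501 in right lungs (0.42 ± 0.13, adjusted p = 0.366). Left lungs lay within or above the control range (4786 to 5378), and all right lungs lay below it. Gprc5a had 7116, 7029 and 6341 and 6481, 5153 and 3135 (0.53 ± 0.20, adjusted p = 0.458), right replicate 3 being the lowest. The water channel Aqp5 (0.55), Ager (0.34) and Emp2 (0.30), chosen after their values were seen, also had no overlap, and Igfbp6 was on the other side (-0.80). Against control, 5 of the 13 were called lower in right lungs, where 6.33% of genes were, and 3 in left lungs, where 9.52% were. Without right replicate 3 the number higher at an unadjusted p was 1, and without left replicate 1 it was 2. It was 3 without left replicate 3 or without right replicate 1. Leaving out the 3 arrays whose actin ratio was high gave 0, with a median of 0.02. Type II cell genes (0 of 13 at an unadjusted p, median -0.03) and club and ciliated cell genes (0 of 9, median -0.04) had none on either side.

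Leukocyte lists gave mixed signs. Lymphocyte and NK cell genes had 3 higher and 1 lower of 16 at an unadjusted p, with a median of 0.15. Over all genes 4.06% were higher and 4.27% lower at that p. Tcf7, the T cell factor, had 552, 789.6 and 677 in left and 308, 397 and 494 in right lungs (0.73 ± 0.19, adjusted p = 0.204), with left lungs around the controls (555 to 685) and right lungs below them. Klrd1, the NK receptor CD94, had 381, 604 and 376 and 231, 269 and 246 (0.78 ± 0.29, adjusted p = 0.458). Left replicate 2 was the highest array of the list, with a mean log2 signal of 8.80 against 8.06 and 8.02 in the other left lungs, and without it the median was -0.17. Mast cell genes numbered 5, of which Tpsb2, a tryptase, had 46.7, 212 and 48.3 and 254, 278 and 512 (-1.73 ± 0.69, adjusted p = 0.488) and Cpa3, carboxypeptidase A3, 139.9, 186 and 155 and 157, 314 and 552 (-0.83 ± 0.31, adjusted p = 0.447). Controls were at 260.0 ± 108 for Tpsb2, near the right lungs, with a lowest value of 55.5. Neutrophil genes (0 of 9 at an unadjusted p, median -0.02) and monocyte and macrophage genes (0 of 12, median -0.10) had none on either side. In the neutrophil list left replicate 2 was the highest left lung, with a mean log2 signal of 9.82 against 8.41 and 8.75. Platelet genes had 2 of 5 lower at an unadjusted p, Itga2b (-0.64) and Ppbp (-0.32), where 4.27% of all genes were lower. Of the 5, 3 had negative and 2 positive differences, the largest positive one being 0.82, and the median was -0.20. Without right replicate 3 the counts of the mast cell and the platelet list were both 0.

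Cardiac and striated muscle genes, which rat lung holds in the muscle sleeve of its veins, had 15 of 18 negative differences with a median of -0.51 and 0 at an unadjusted p. Myl7, the atrial myosin light chain, had 36.3, 42.2 and 717 in left and 2355, 1046 and 56 in right lungs (-2.03 ± 1.21, 95% interval -4.58 to 0.53), with controls from 40 to 1360.2. High arrays occurred on both sides: left replicate 3 and right replicates 1 and 2. Right replicate 1, the array with high immediate early genes, was the highest right array in 16 of these 18 genes, and without it the median was -0.15. Without left replicate 3 the median was -0.86 with 4 lower, and without right replicate 3 it was -1.09 with 7 lower. Of all 10533 probe sets, 846 and 912 were at an unadjusted p in either direction in these fits. Whether the amount of vein or airway in a sample bears on its inducible genes was not tested. At 3 h, 4 of the 18 were called lower in left lungs, where 0.621% of all genes were.

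Metabolic and RNA processing genes differed by small amounts. Oxidative phosphorylation genes had a negative difference in 41 of 52 members and lay below with no overlap in 10, where 6.28% of all genes did, but by a median of only -0.10, with 2 at an unadjusted p. These were Cox5b, a cytochrome oxidase subunit (1738, 1944 and 1620.3 in left, 2208, 2207 and 2138 in right, -0.31 ± 0.12), and Ndufs8 of complex I (451, 505 and 441 and 564, 598 and 609, -0.33 ± 0.13). Splicing factors and RNA-binding proteins had a positive difference in 27 of 33 members, with a median of 0.12. Of these, 5 were higher at an unadjusted p, where 4.06% of all genes were. Hnrnpa1 had 1806, 1891 and 1429 in left and 1330.4, 1057 and 1101 in right lungs (0.54 ± 0.14, adjusted p = 0.204), all above its controls (681 to 794), while its 2 other probe sets gave 0.20 and 0.22. Tra2a had 1167, 919.7 and 1099 and 1118, 584 and 566 (0.54 ± 0.24, adjusted p = 0.534), with right replicate 1 within the left range. Without left replicate 3 or right replicate 3 the splicing count was 1. Hypoxia and glycolysis genes gave 1 higher and 2 lower of 31 (median 0.04), among them Pdk1, which holds pyruvate out of the mitochondrial cycle, at 263, 270.0 and 259 in left and 354, 383 and 348 in right lungs (-0.42 ± 0.11, adjusted p = 0.208); its left lungs matched the controls (264 ± 22.8). Pfkfb4 had 277, 283 and 350.5 and 233, 167 and 256 (0.44 ± 0.18, adjusted p = 0.498).

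Vascular and lipid mediator genes gave single members with separate groups. Apln, the endothelial peptide apelin, had 1101, 1357 and 1119.7 in left and 2637, 2254 and 1736 in right lungs (-0.86 ± 0.20, adjusted p = 0.176), and its other probe set -0.78. Left lungs lay below or within the control range of 1309 to 1842, and right replicates 1 and 2 above it. The adenosine receptor Adora2a had 286, 249 and 206 and 169, 83.7 and 131 (0.86 ± 0.28, adjusted p = 0.368), with controls at 241 ± 9.88, and Gucy1b1, a subunit of the nitric oxide receptor, 872, 1064 and 931 and 1130.5, 1306 and 1529 (-0.45 ± 0.16, adjusted p = 0.447). The other probe set of Gucy1b1, of similar brightness, gave only -0.099 ± 0.18. Hpgd, which inactivates prostaglandins, had 1368, 942 and 992 and 544, 544 and 858 (0.75 ± 0.30, adjusted p = 0.488), and 1.12 by its other probe set. Rsad2, an interferon-induced antiviral enzyme, had 966, 952 and 607 in left and 1095, 1441 and 2614 in right lungs (-0.94 ± 0.31, adjusted p = 0.398), with right replicate 3 highest. In the antioxidant list 2 of 30 were higher at an unadjusted p: Srxn1, sulfiredoxin (457, 902 and 392 and 520.4, 312 and 35.9, 1.35 ± 0.58), and Pgd of the pentose phosphate pathway (0.35). Proteasome (median -0.01), ribosomal protein (-0.04), cholesterol (-0.03), fatty acid (-0.08), circadian (0.08), glucocorticoid (0.12), complement (-0.12) and interferon (-0.01) lists had 0 to 2 members on either side at an unadjusted p and 0 called.

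Many genes stood far from control in both lungs and were not called between them. Mt2A, a metallothionein, had 7460.3, 8219 and 7089 in left and 10029.7, 5129 and 7530.4 in right lungs against 583 ± 252 in controls. Both lungs were called (3.74 and 3.68 on the log2 scale, adjusted p = 1.51e-06 and 1.98e-06), and they differed by 0.055 ± 0.37, with a 95% interval of -0.72 to 0.83. Fkbp5, a glucocorticoid-induced co-chaperone, had 2746, 1705 and 1560.1 and 2254, 1556 and 2148, a difference of -0.014 ± 0.25 (95% interval -0.54 to 0.52), against 326 ± 93.9 in controls. The neutrophil protein S100a8 had 1727, 4939 and 1314 and 1492, 3015 and 1751 (0.17 ± 0.46, 95% interval -0.80 to 1.14), and the decoy receptor Il1r2 555, 1492 and 317 and 499, 723 and 378 (0.31 ± 0.53, 95% interval -0.80 to 1.42). In both of these, replicate 2 was the highest of the left and of the right lungs. Among genes below control, Foxo1 had 125, 132 and 163 in left and 141, 131 and 179.5 in right lungs against 517 ± 61.6 (-0.086 ± 0.19, 95% interval -0.49 to 0.32). Creb1 had 154, 75.1 and 81.4 and 206, 105 and 102 against 418 ± 137 (-0.33 ± 0.30, 95% interval -0.97 to 0.30), replicate 1 being the highest on both sides. Prkaa2, the catalytic alpha2 subunit of AMPK, was near the floor of the array in both lungs, at 6.63, 6.46 and 7.42 and 9.67, 7.78 and 11.4, against controls of 102 to 321. The Wnt co-receptor Lrp6 differed by -0.32 (95% interval -0.76 to 0.11), Akap5 by 0.059 (-1.11 to 1.22) and the B cell gene Cd79b by -0.12 (-0.95 to 0.71). Zfpm1 differed by 0.31 (-0.91 to 1.53) and Veph1 by 0.68 (-0.055 to 1.41). Gzmm, a granzyme of NK cells, stood away from control in the right lungs (-1.60, adjusted p = 0.0348) and at -0.27 in the left (adjusted p = 0.731), and the lungs differed by 1.33 (95% interval 0.17 to 2.50). Intervals such as those of Mt2A, S100a8 and Il1r2 include differences of more than 1.5-fold in either direction, so the lungs are not shown to be alike. Counted over all probe sets against the same controls, 2099 (19.9%) were called in left lungs, 916 higher (8.70%) and 1183 lower (11.2%), and 1407 (13.4%) in right lungs, 639 higher (6.07%) and 768 lower (7.29%).

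The left-right difference changed with time for 24 probe sets (0.228%) by the interaction of side and time, 2 higher (0.0190%) and 22 lower (0.209%) at 30 min than at 3 h. Over genes, the 2 higher ones were 0.0259%. At 3 h, 240 probe sets (2.28%) were called between the lungs of other rats, 173 of them higher in left (1.64%), and 183 genes (2.37%). Across the 7728 genes the differences at 30 min and at 3 h, which share no array, had a Pearson r of 0.41; genes are not independent replicates. The 2 that were higher at 30 min were Mylip (1.09 ± 0.19, adjusted p = 0.0213) and Patz1, a zinc finger repressor (0.79 ± 0.15, adjusted p = 0.0374). Patz1 had 239, 203 and 230.0 in left and 152, 179 and 202 in right lungs at 30 min, and 114 ± 3.87 in left and 169.8 ± 5.23 in right lungs at 3 h (SD, n = 3). Rnf144b was on the lower side (-0.96 ± 0.19, adjusted p = 0.0443), its 3 h difference being 0.094. For Mief1 (-0.99 ± 0.22, adjusted p = 0.0924) and Id1 (-0.64 ± 0.19, adjusted p = 0.349) the change did not pass the threshold.

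The lower side was led by heat shock chaperones, which refold or hold damaged proteins and are driven by heat shock factor. Of 22 tested members 9 changed, where 0.207% of all genes did: Hspa1a, Dnaja1, Hspb1, Hsph1, Dnajb1, Bag3, Hspd1, Stip1 and Dnaja4. At 30 min the list had a median of 0.02 between the lungs, 0 higher and 1 lower at an unadjusted p (Hspb6, -0.46 ± 0.18), and 12 positive and 10 negative members. At 3 h its median was 0.87 and 13 were called higher in left lungs, where 1.75% of all genes were. Hspa1a, the inducible HSP70, had 2196, 2203 and 1696 in left and 2299.8, 1501 and 892 in right lungs at 30 min (0.46 ± 0.31, 95% interval -0.19 to 1.11). These ranges overlapped, and controls were at 1142 ± 236. At 3 h it had 11932 ± 684 in left and 839.8 ± 434 in right lungs (SD, n = 3), so the difference changed by -3.43 ± 0.44 (adjusted p = 0.00142). Hspa1a has a near-identical copy, Hspa1b. The annotation gives the probe set used here to Hspa1a alone, and another one to both genes. That other probe set differed by 0.53 between the lungs at 30 min, and its difference changed by -3.30 ± 0.66 (adjusted p = 0.0457). Whether either probe set separates the transcripts of the copies was not tested. Dnaja1, a J-domain partner of HSP70, had 1737, 1730.3 and 1433 and 1979, 1583 and 1286 at 30 min (0.031 ± 0.18, 95% interval -0.34 to 0.40) and 6950.2 ± 1206 and 1182 ± 12.9 at 3 h (change -2.48 ± 0.25, adjusted p = 1.41e-04). Hspb1, the small heat shock protein HSP27, had 2454, 3676 and 2492 and 2452, 3231 and 2695 (0.025 ± 0.23, 95% interval -0.46 to 0.51) and 11608 ± 929 and 2219.5 ± 755 at 3 h (change -2.40 ± 0.32, adjusted p = 0.00149). For Hsph1 the change was -2.30 ± 0.37, for Dnajb1 -2.04 ± 0.27, for Bag3 -1.79 ± 0.31, for Hspd1 -1.76 ± 0.29, for Stip1 -1.19 ± 0.21 and for Dnaja4 -1.01 ± 0.18, with 30 min differences of 0.077, 0.32, 0.021, -0.062, -0.16 and -0.12. Zfand2a, a zinc finger protein induced by arsenite and heat, had 547, 668 and 553 and 494, 522 and 419 at 30 min, no overlap, and 2367 ± 1160.1 and 481 ± 177 at 3 h (change -1.91 ± 0.37, adjusted p = 0.0368). At 30 min it stood above control in both lungs (1.22 and 0.93, adjusted p = 0.00123 and 0.0118). Of the 22 chaperones 2 were called above control in left lungs, where 8.64% of all genes were, and 0 in right lungs, where 5.93% were. When the 3 arrays of high actin ratio were left out, 5 probe sets were lower and 0 higher. Leaving out single arrays at 30 min gave 13 to 16 lower and 0 to 2 higher, with 0 higher without left replicate 1 or left replicate 3. The lower count was 13 without left replicate 3, right replicate 2 or right replicate 3 and 14 without left replicate 2. Leaving out single arrays at 3 h, an alternative chosen after the data were seen, gave 10 to 24 lower and 0 to 6 higher. Without right replicate 1 at 3 h the counts were 10 lower and 0 higher, and without left replicate 1 at 3 h 14 lower and 1 higher. The higher count was 1 without left replicate 3 or right replicate 2 at 3 h and 6 without right replicate 3. The chaperones called lower numbered 6 to 8 without an array at 30 min and 5 to 9 without one at 3 h. Mylip was not called for the change without left replicate 3 or right replicate 1 at 3 h. Of the 6 fits without an array at 3 h, Rnf144b was called in 1, Patz1 in 1 and Zfand2a in 4.

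**Figure D5:**
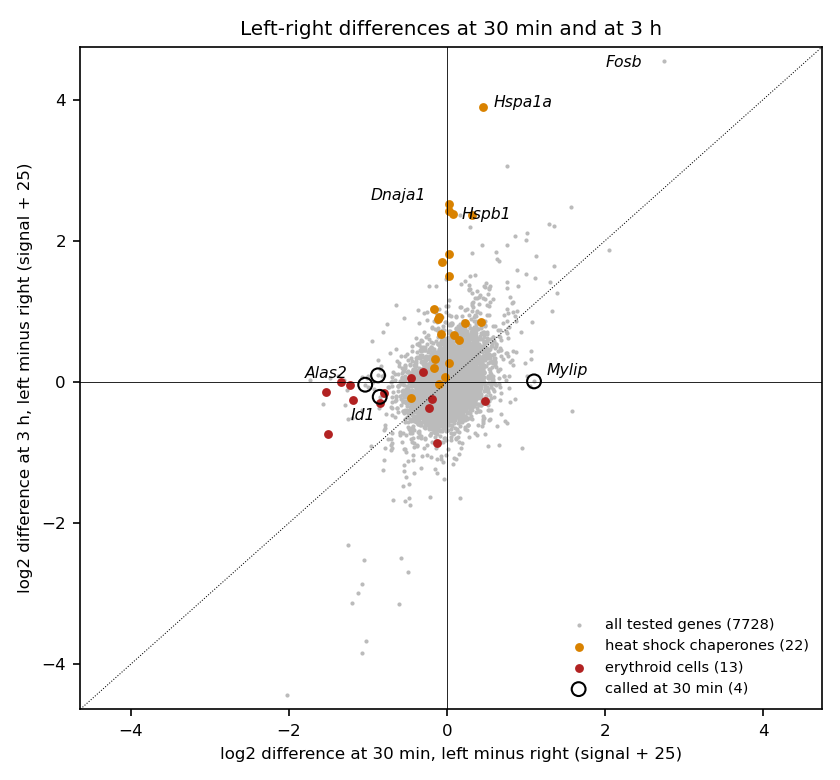
Log2 difference left minus right at 30 min (horizontal axis) against that at 3 h (vertical axis) for 7728 genes; orange points are the 22 heat shock chaperones, red points the 13 red cell genes, rings the 4 genes called at 30 min, and the dotted line marks equal differences. The chaperones rise along the vertical axis near 0 on the horizontal one, up to 3.90 for Hspa1a, whereas red cell genes spread along the horizontal axis.

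Promoter stretches of 3 of these chaperones are shown because the heat shock element is the sequence that the list is known to share. They are the 150 bases before the start on GRCr8, Dnajb1 at chr19:41431142-41431291 on the minus strand, Hspb1 at chr12:26432302-26432451 on the minus strand and Hsph1 at chr12:10427218-10427367 on the plus strand, with the same motifs in capitals.
Dnajb1: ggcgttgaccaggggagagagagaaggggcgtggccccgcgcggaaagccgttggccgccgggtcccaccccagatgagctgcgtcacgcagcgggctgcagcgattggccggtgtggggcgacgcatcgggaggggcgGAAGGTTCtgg
Hspb1: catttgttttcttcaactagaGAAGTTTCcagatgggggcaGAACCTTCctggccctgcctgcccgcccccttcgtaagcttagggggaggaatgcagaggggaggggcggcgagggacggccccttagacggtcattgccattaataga
Hsph1: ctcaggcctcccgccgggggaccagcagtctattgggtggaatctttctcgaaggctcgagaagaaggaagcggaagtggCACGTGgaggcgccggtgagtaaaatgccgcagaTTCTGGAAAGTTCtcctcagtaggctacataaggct
Dnajb1 has GAANNTTC starting 11 bases before the start, Hspb1 has it at 129 and at 109 bases, and Hsph1 has the form of 3 units at 36 bases, on the opposite strand; the other capitals in Hsph1 are the core ACGTG, which 26.6% of tested genes held. Of the 17 genes with a probe set lower at 30 min than at 3 h and 1 gene name, 6 (35.3%) held GAANNTTC in the window of 300 bases, against 5.46% of the 6460 tested genes with a promoter, and 3 (17.6%) held the 3-unit form, against 0.511%. The 6 were Dnaja1, Dnajb1, Hspb1, Hspd1, Hsph1 and Bag3. Hspa1a, Stip1, Dnaja4, Zfand2a and Rnf144b had no match in this window. The 17 genes were chosen by their readout and many are known chaperones, so these shares are a description of the list.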

How the data were processed

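The authors deposited MAS5 signals, an intensity per probe set on a linear scale, in one value table of 18 rat arrays; MAS5 is named in the submitters' processing notes with no version, and GeneSpring 7.2 in the series' design text. The 2% trimmed mean was 500.1 on each array, tested on the file. Genes were named from the platform annotation of 2016: 12783 probe sets had 1 symbol, 312 several and 2771 none, and a gene is its brightest tested probe set. Of the 1-symbol probe sets, 12748 were in the RefSeq table.

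From the intensities, log2(signal + 25) was fitted with limma 3.58.1 in R 4.3.3 as 5 group means, with probe sets kept if 3 arrays or more passed the 40th percentile of all signals, and no further normalization. Promoters were read with Python 3.11.15, and figures drawn with matplotlib 3.10.9. The fit was tested on simulated data. The number of arrays limits the precision, and nothing in the labels says how replicates were prepared beyond separate rats, so p-values measure the spread between these samples.

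Same-numbered left and right arrays at 30 min deviated together from their group means (r = 0.12, 0.31 and 0.15, unlike-numbered -0.29 to 0.10). At 3 h the same-numbered values were -0.17, 0.07 and -0.15, and the unlike-numbered ones -0.24 to 0.34. The replicate block is therefore given only as an alternative. Its pairing was read from the same 30 min values and is not stated in the labels. The 43 gene lists, the named genes and the tests were chosen with earlier results of these data known. By the naming rule, the text names called genes with no overlap, the 8 of smallest p on a side with fewer than 5 such genes, the 2 of smallest p in a list with none called, 6 changed genes a side, and 23 genes far from control; other members are said to have been chosen after their values were seen, which also holds for Tnip1, Cxcl10, Hspd1, Stip1, Dnaja4 and Bag3. Alternatives were other pseudocounts, filters, scalings, array weights, covariates and arrays left out.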

Additional observations from a re-analysis of the deposited data

Results flagged for a closer look

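The left-right difference at 30 min differed from that at 3 h by the interaction term of the limma fit in 9 of the genes named by the rule. Mylip was higher at 30 min by 1.09 ± 0.19 and Patz1 by 0.79 ± 0.15 on the log2 scale. The difference was lower at 30 min for Rnf144b (-0.96 ± 0.19), Hspa1a (-3.43 ± 0.44), Dnaja1 (-2.48 ± 0.25), Hspb1 (-2.40 ± 0.32), Hsph1 (-2.30 ± 0.37), Dnajb1 (-2.04 ± 0.27) and Zfand2a (-1.91 ± 0.37). Leaving out single arrays ended some of these calls, as given with the change between times.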

How the results depend on the processing

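The main count between left and right lungs was 1 higher and 3 lower. The same 4 probe sets were called with a pseudocount of 1 (1 and 3) and with a trended robust prior (1 and 3), and they were among those called with a pseudocount of 100 (3 and 5), without the filter (1 and 4), with median centring (2 and 4), quantile normalization (2 and 4), array weights (11 and 4), the actin ratio as covariate (1 and 8) and the replicate block (2 and 4). With a stricter filter 3 of the 4 were tested and called, of 4 higher and 3 lower. With the red cell mean as covariate, which itself separated the sides, without the 3 arrays of high actin ratio, and from the 6 arrays alone with or without the replicate block, 0 were called in either direction (478, 510, 910 and 659 at an unadjusted p under 0.05); in the fit without the 3 arrays the lone left array was assumed to vary like the other groups. Leaving out each replicate in turn gave 1 to 7 higher and 0 to 9 lower, with 0 lower without left replicate 3 or right replicate 3, and Mylip called each time. For the change between times, 2 higher and 22 lower in the main fit, the counts were 1 higher with a pseudocount of 100, without the filter (17 lower), with the trended robust prior and with the red cell covariate, 5 with array weights, and 0 with the actin covariate (14 lower) and without the 3 arrays (5 lower); leaving out each replicate in turn, at 30 min or, added after the data were seen, at 3 h, gave 0 to 6 higher and 10 to 24 lower. The replicate block gave 3 higher and 21 lower, and changed no other call between the lungs than adding Rasgrp2 and Cd52. Causes were not tested, beyond the fewer arrays of the last fits. Of the differences of single genes, 2161 kept their sign and side of the threshold, 26 lost and 26 gained a call, and 17 uncalled ones changed sign: with the red cell covariate Lrp6 (0.16), Alas2 (0.014), Fech (0.53), Rhd (0.18), Hbb (0.16), Igfbp6 (0.026), Tra2a (-0.34), Foxo1 (0.19), Cryab (-0.039), Dnaja1 (-0.51), Hsph1 (-0.21) and Itga2b (0.024); without the 3 arrays Cd79b (0.56) and Hsph1 (-0.41); without left replicate 2 S100a8 and Il1r2; and without right replicate 1 Hspd1 (leaving out each replicate gave -0.40 to 0.55, -0.28 to 0.79 and -0.22 to 0.19). Dim probe sets, such as Prkaa2 in operated lungs, lie near the array's floor, where signal over background limits any difference.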
